A study of Mus musculus with 4 samples.

Results

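Enteric neuron and glia genes are described here across 4 microarrays of mouse colon. The set holds 8 genes, of which Elavl4, Uchl1, Prph, Ret, Vip and Nos1 mark enteric neurons and S100b and Sox10 mark enteric glia. They were found by the gene name printed beside each probe of the array, and all 8 were present, on 10 of 39423 probes, out of 22368 genes that could be named in all. Elavl4 and Nos1 had 2 probes each and the others 1.

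The enteric nervous system lies in the wall of the gut as ganglia between the muscle layers and beneath the mucosa, and it sets motility, secretion and blood flow. Its neurons and glia arise from neural crest cells that colonise the embryonic gut under the control of Ret and its ligand Gdnf, with Sox10 needed to keep the migrating progenitors in being. In the mature colon, excitatory motor neurons release acetylcholine and tachykinins, while inhibitory motor neurons release nitric oxide, made by Nos1, and vasoactive intestinal peptide, the product of Vip. Glia that carry S100b surround both kinds of neuron.

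The study asked how loss of Pla2g3, which encodes secreted group III phospholipase A2, bears on colon carcinogenesis. RNA came from the colon of 42-week-old males of a B6.129 background (backcross generation 3), genotyped Pla2g3+/+ or Pla2g3-/-, given either azoxymethane (AOM, a chemical carcinogen) or saline as vehicle. AOM was injected intraperitoneally at 10 mg/kg each week for 6 weeks, and the colon was taken 28 weeks after the last dose, at which point the labels call the AOM tissue colorectal cancer and the vehicle tissue normal. Each of the 4 groups is 1 pool of RNA on 1 array of the same slide, so no difference between groups has a replicate check, and none carries a p-value of its own. The labels give 3 to 5 mice per pool, whereas the paper states that RNA of 4 mice was pooled for each genotype. In RNA of whole tissue, fewer neurons or glia, less RNA per cell and a changed share of other cell types cannot be told apart.

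Between 64.8% and 69.4% of spots were well above background on the 4 arrays, and 399 probes spotted repeatedly on each array gave a median SD of 0.07 to 0.08 on the log2 scale. As markers of the labelled tissue, 13 of 13 colon epithelium genes were well above background on all 4 arrays. The Pla2g3 signal went against the genotype label: its brightest probe gave 1.23-fold more scaled signal on the vehicle array labelled Pla2g3-/- than on its Pla2g3+/+ counterpart, and 6.01-fold more after AOM. Whether the 3 Pla2g3 probes lie in the deleted part of the gene is not stated in the sources used here, so the pools are called by their labels. The vehicle pool labelled Pla2g3-/- stood apart in exocrine pancreas genes, 12 of 12 of which exceeded their Pla2g3+/+ vehicle level by more than 2-fold, at a median log2 ratio of 4.77.

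Some probes of these genes, not including that of Vip, are shown first, 5′ to 3′ in the sense of the transcript. They are the Prph probe, which reads the last codons of peripherin up to the stop codon (in capitals), the Uchl1 probe and the dimmer Nos1 probe, which both hold an open reading frame, and the pair of Elavl4 probes, which gave different results. The positions are those of mouse build mm9 as the array files list them: chr15:98889042-98889101 (plus strand) for Prph, chr5:67073886-67074977 (plus) for Uchl1, whose 60 bases are spread over 1092 bases of genome, and chr5:118402831-118402890 (plus) for the dimmer Nos1 probe.
Prph: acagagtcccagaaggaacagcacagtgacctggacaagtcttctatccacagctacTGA
Uchl1: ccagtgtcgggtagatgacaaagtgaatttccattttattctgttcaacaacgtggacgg
Nos1, dimmer probe: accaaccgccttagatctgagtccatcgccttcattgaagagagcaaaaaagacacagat

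Of the Elavl4 probes, only a stretch of 30 bases each is shown. The brighter probe (chr4:109877455-109877514, minus strand) holds a run of 11 alternating G and T bases, in capitals, in its bases 21 to 50. The dimmer probe (chr4:109878558-109878617, minus strand) has no such run longer than 3 bases, also in capitals, in its bases 7 to 36.
Elavl4, brighter probe: gtccttctgtTGTGTGTGTGTatgtgtaca
Elavl4, dimmer probe: caccttccttgaagGTGggtctttttaaga
A run of at least 11 such bases was present in 126 of 39423 probes (0.320%), and 98.4% of those probes were well above background on all 4 arrays, against 59.5% of all probes.

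The values below are scaled signals, meaning the background-subtracted signal of a probe divided by the 75th percentile of all probes that were not controls on the same array. The error beside a value is the scanner software's own estimate for that array, scaled alike, and covers neither mice nor pools. Levels of different probes are not set against each other, because probes differ in how well they bind their target.

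**Figure D1:**
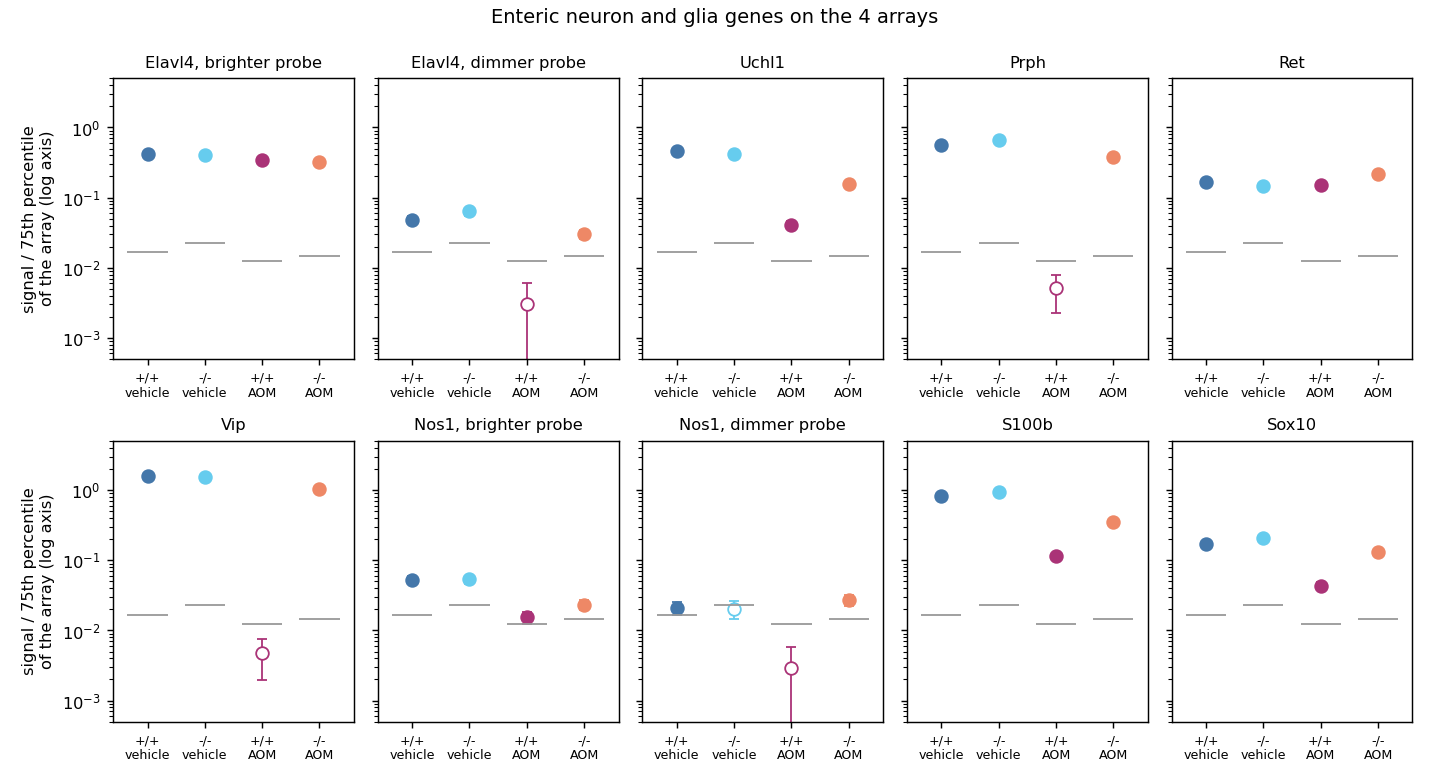
Scaled signal of each of the 10 probes on the 4 arrays (log axis), with the error estimated by the scanner software. Filled points were well above background and open points were not; the grey bar is the lowest scaled signal called well above background on that array. Vip, Prph and the dimmer probes of Elavl4 and Nos1 fall below that bar on the Pla2g3+/+ AOM array.

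Vip, which encodes the peptide that relaxes gut muscle and drives secretion, differed most across the arrays. Its scaled signal was 1.61 ± 0.161 in the Pla2g3+/+ vehicle pool, 1.53 ± 0.154 in the vehicle pool labelled Pla2g3-/-, 0.00478 ± 0.0028 in the Pla2g3+/+ AOM pool and 1.03 ± 0.103 in the AOM pool labelled Pla2g3-/-. The Pla2g3+/+ AOM value was not well above background, while the 3 others were close together and far above it. AOM was thus accompanied by a level at least 128-fold lower in Pla2g3+/+ but only 1.49-fold lower in the pool labelled Pla2g3-/-. These bounds use the lowest signal called well above background on the dim array, which was 0.0126 on the scaled axis for Pla2g3+/+ AOM.

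Prph, the gene of the intermediate filament peripherin of peripheral and enteric neurons, followed the same course. Its scaled signals were 0.572 ± 0.0573 and 0.66 ± 0.0662 in the Pla2g3+/+ and Pla2g3-/- vehicle pools, 0.00508 ± 0.00278 in Pla2g3+/+ after AOM and 0.385 ± 0.0386 in the AOM pool labelled Pla2g3-/-. Again only the Pla2g3+/+ AOM array was not well above background. The level there was at least 45.5-fold lower than with vehicle, against 1.72-fold lower in the pool labelled Pla2g3-/-. This bound too depends on the handling of background. The log2 ratios of Prph were -2.69 and -0.69 with normexp and quantile normalization.

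Uchl1, which encodes the abundant neuronal deubiquitinase PGP9.5, was well above background on all 4 arrays. Its scaled signals were 0.461 ± 0.0463 and 0.425 ± 0.043 with vehicle in Pla2g3+/+ and Pla2g3-/-, then 0.0406 ± 0.00536 and 0.159 ± 0.0164 after AOM in the same order. Both AOM pools were below both vehicle pools, by 11.3-fold in Pla2g3+/+ and 2.68-fold in the pool labelled Pla2g3-/-. The log2 ratios were smaller with normexp and quantile normalization, at -1.82 and -0.95.

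Ret, the receptor tyrosine kinase for ligands of the Gdnf family, stayed within 2-fold in all 4 comparisons. Its scaled signals were 0.168 ± 0.0171, 0.146 ± 0.0154, 0.152 ± 0.0155 and 0.216 ± 0.0219 in the order Pla2g3+/+ vehicle, Pla2g3-/- vehicle, Pla2g3+/+ AOM and Pla2g3-/- AOM. The lowest value was in the vehicle pool labelled Pla2g3-/- and the highest in the AOM pool labelled Pla2g3-/-, which set Ret apart from the other neuronal genes with a single probe.

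The 2 Elavl4 probes did not give the same answer. Elavl4 encodes HuD, an RNA-binding protein of neurons. The brighter probe, which holds the run of G and T bases, read 0.414 ± 0.0416, 0.403 ± 0.0408, 0.343 ± 0.0345 and 0.323 ± 0.0325 over the 4 pools in the same order, and its lowest array was the AOM pool labelled Pla2g3-/-. The dimmer probe read 0.0484 ± 0.00638 and 0.0637 ± 0.00852 with vehicle, 0.00301 ± 0.003 in Pla2g3+/+ after AOM, not well above background, and 0.0301 ± 0.00471 in the AOM pool labelled Pla2g3-/-. By the dimmer probe Elavl4 was at least 3.85-fold lower with AOM in Pla2g3+/+ and 2.12-fold lower in the pool labelled Pla2g3-/-, whereas by the brighter probe it was 1.20-fold and 1.25-fold lower. The part of the G and T run in this disagreement was not tested.

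Nos1, the neuronal nitric oxide synthase, was dim on every array. Its brighter probe, at chr5:118404306-118404365, read 0.0526 ± 0.00632 and 0.0535 ± 0.00719 with vehicle, 0.0155 ± 0.00304 in Pla2g3+/+ AOM and 0.0234 ± 0.00385 in the AOM pool labelled Pla2g3-/-. By this probe both AOM pools were lower than both vehicle pools, by 3.40-fold and 2.29-fold within the genotypes. The dimmer probe read 0.021 ± 0.00445 in Pla2g3+/+ vehicle, 0.0205 ± 0.00567 in Pla2g3-/- vehicle, not well above background, 0.00291 ± 0.00291 in Pla2g3+/+ AOM, not well above background, and 0.0271 ± 0.00445 in the AOM pool labelled Pla2g3-/-. For this probe the AOM pool labelled Pla2g3-/- was the highest of the 4, at least 1.19-fold above the vehicle pool of that label. The values of these 2 pools overlap within their errors, so the dimmer probe does not settle a direction with AOM in that genotype.

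The glial genes moved between these extremes. S100b, which encodes a calcium-binding protein of glia, read 0.835 ± 0.0835 and 0.928 ± 0.093 in the Pla2g3+/+ and Pla2g3-/- vehicle pools, 0.115 ± 0.0118 in Pla2g3+/+ AOM and 0.348 ± 0.0349 in the AOM pool labelled Pla2g3-/-. Sox10, the transcription factor of neural crest progenitors and glia, read 0.171 ± 0.0176, 0.206 ± 0.0213, 0.0435 ± 0.00525 and 0.131 ± 0.0136 over the pools in that order. In both genes the Pla2g3+/+ AOM pool was the lowest and the AOM pool labelled Pla2g3-/- lay between it and the vehicle pools. S100b was 7.25-fold lower with AOM in Pla2g3+/+ and 2.67-fold lower in the pool labelled Pla2g3-/-, and Sox10 was 3.94-fold and 1.57-fold lower.

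With vehicle, the question was whether the genotype alone went with a difference in these genes. All 8 were within 2-fold between the pools labelled Pla2g3-/- and Pla2g3+/+, as read by each gene's brightest probe, and they split evenly into 4 higher and 4 lower. Their log2 ratios lay between -0.20 (Ret) and 0.26 (Sox10), with a median of -0.01 against -0.02 over all genes. Of all 16391 genes with a value, 1.92% exceeded 2-fold upward and 1.32% downward. The scanner error of these ratios was 0.20 to 0.26 on the log2 scale, which the ratios of Sox10 (0.26 against an error of 0.21) and Prph (0.21 against 0.20) reached and the others did not.

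Between the AOM pools, 5 of the 8 genes exceeded 2-fold in favour of the pool labelled Pla2g3-/- and 0 in favour of Pla2g3+/+, where 15.1% and 12.9% of all genes did so. Vip was at least 82.0-fold and Prph at least 30.6-fold higher. Their log2 ratios with normexp and quantile normalization were 3.34 and 2.19, which are smaller than these bounds. Uchl1 was 3.90-fold higher, and S100b and Sox10 were both 3.02-fold higher. Nos1 (1.51-fold higher), Ret (1.42-fold higher) and the brighter Elavl4 probe (1.06-fold lower) stayed within 2-fold. The dimmer probes of Elavl4 and Nos1 were at least 2.39-fold and at least 2.16-fold higher. Over the 8 genes the median was 1.59 on the log2 scale, and over all genes 0.03.

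In the Pla2g3+/+ pools, 6 of the 8 genes were over 2-fold lower with AOM than with vehicle and none was over 2-fold higher, where 22.4% of all genes were over 2-fold lower and 15.1% over 2-fold higher. The genes over 2-fold lower were Vip, Prph, Uchl1, S100b, Sox10 and Nos1, and the median of the 8 was -2.42 on the log2 scale, against -0.17 over all genes. It was -1.87 over the genes measured on both arrays and -1.37 with normexp and quantile normalization. Without scaling between arrays it was -1.40, where the median of all genes measured on both arrays was 0.86. In the pools labelled Pla2g3-/-, 3 of the 8 genes, Uchl1, S100b and Nos1, were over 2-fold lower with AOM and none was over 2-fold higher, where 15.1% of all genes were over 2-fold lower and 9.65% over 2-fold higher. The median of the 8 there was -0.71 against -0.08 over all genes. Without scaling between arrays this median was 0.13, as the AOM arrays were brighter as a whole, with 75th percentiles of 1309 in Pla2g3+/+ and 1169 in Pla2g3-/- against 646 and 650 with vehicle. The comparison after AOM and the comparison of AOM with vehicle in Pla2g3+/+ share the same Pla2g3+/+ AOM array, so they are not separate evidence.

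**Figure D2:**
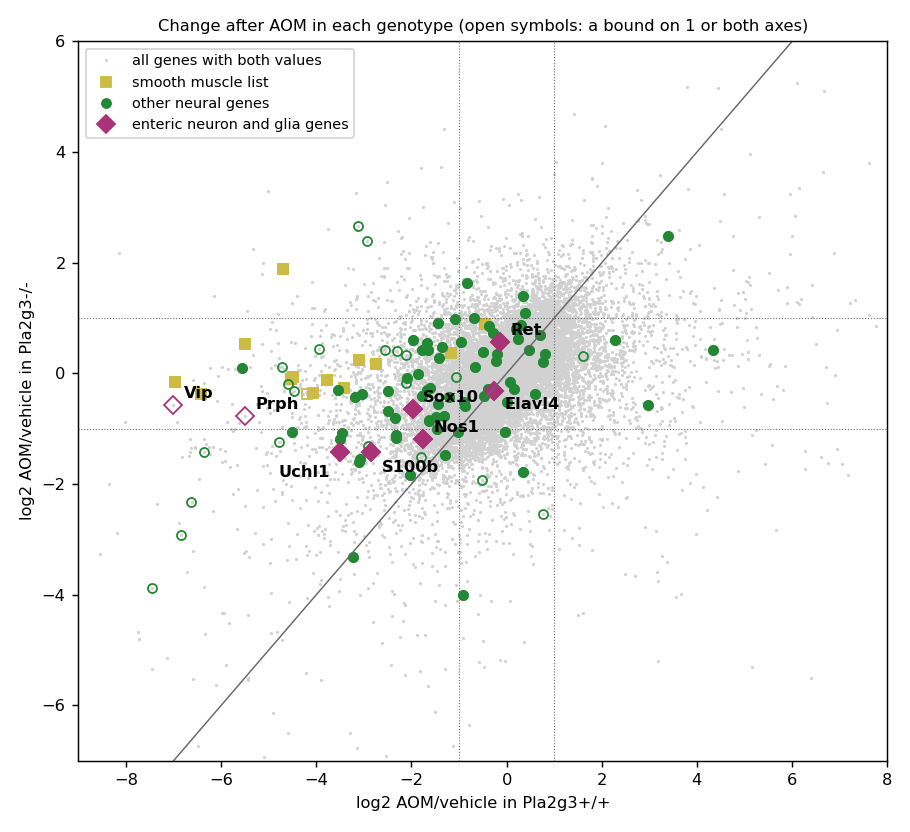
Log2 ratio of AOM over vehicle in Pla2g3+/+ (horizontal) and in the pools labelled Pla2g3-/- (vertical) for all genes with both values that lie within the axes (grey), the 8 enteric neuron and glia genes, other neural genes and smooth muscle genes. Dotted lines mark 2-fold, the solid line equal change, and open symbols are bounds; Vip and Prph lie far to the left of the solid line while Ret and Elavl4 lie near 0 on both axes.

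The scaled signal of 6 of the 8 genes was lowest on the Pla2g3+/+ AOM array, and so was that of 70 of the 98 other neural genes well above background on at least 1 array (71.4%), against 38.1% of all genes. The exceptions among the 8 were Ret, lowest in the vehicle pool labelled Pla2g3-/-, and Elavl4 by its brighter probe, lowest in the AOM pool labelled Pla2g3-/-.

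A fit over the 4 arrays that takes treatment and genotype as additive, with 1 residual degree of freedom, called none of 17877 genes for treatment (0%) and none for genotype (0%) by limma at an adjusted p of 0.05. At an unadjusted p of 0.05 it held 2410 genes for treatment and 215 for genotype. Among the 8 genes the treatment estimates nearest to the threshold in this limma fit, all at an adjusted p = 0.368, were those of Nos1 (log2 difference -1.48 ± 0.35, SE), S100b (-2.14 ± 0.53) and Uchl1 (-2.46 ± 0.69). Any change with AOM that differs between the genotypes counts as noise in this fit. A gene low on the Pla2g3+/+ AOM array alone thus gets a large error. The lack of calls therefore allows no conclusion about such a change. The fit took signals as deposited, also for Vip and Prph on the Pla2g3+/+ AOM array, where neither was well above background, so no estimate is given for them.

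Beyond the 8 genes, 101 further genes of neurons, glia and their signals were set out in 6 lists, and all were on the array. Sox2, Sox8 and Tph2 were not well above background on any of the 4 arrays. With vehicle, 1 of the 94 with a value was over 2-fold higher in the pool labelled Pla2g3-/- and 0 were lower. The exception was Calca, the gene of the sensory peptide CGRP, at a log2 ratio of 1.62, named after its value was seen. After AOM, 54 of 96 were over 2-fold higher (56.2%) and 12 lower (12.5%) in the pool labelled Pla2g3-/-, against 15.1% and 12.9% of all genes, so that the share of lower genes was near that of all genes. With AOM against vehicle, 58 of 98 were over 2-fold lower (59.2%) and 7 higher (7.14%) in Pla2g3+/+, against 22.4% and 15.1% of all genes. In the pools labelled Pla2g3-/-, 24 of 93 were lower (25.8%) and 7 higher (7.53%), against 15.1% and 9.65% of all genes. The same shares over all genes apply to the counts of single lists given next.

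Among pan-neuronal genes, 15 of 24 were over 2-fold lower with AOM in Pla2g3+/+ and 2 higher, with a median of -1.48 on the log2 scale (-0.46 without scaling between arrays). Cplx2, a complexin of the synaptic release machinery, had scaled signals of 44.9 and 44.8 in the Pla2g3+/+ and Pla2g3-/- vehicle pools, 14.0 in Pla2g3+/+ AOM and 36.5 in Pla2g3-/- AOM. Snap25, a SNARE protein of synaptic vesicle fusion, read 14.4, 12.2, 4.19 and 9.21 over the same pools. The surface protein gene Thy1 stayed within 2-fold of its vehicle level in both genotypes. Cplx2 and Snap25 were thus lowest in the Pla2g3+/+ AOM pool, and Thy1 was not. In the pools labelled Pla2g3-/-, 4 of 23 were over 2-fold lower and 3 higher with AOM, near the shares over all genes.

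The transcription factors listed for enteric cell fate were more mixed, and which cells of the tissue gave their signals was not tested. With AOM in Pla2g3+/+, 7 of 14 with a value were over 2-fold lower and 3 higher. Tbx3 had a scaled signal of 1.1 with vehicle and 8.60 with AOM in Pla2g3+/+, a log2 difference of 2.96, and Meis2 read 0.612 and 0.225 in the same pools. Etv1 was 1.60 lower on the log2 scale and Casz1 0.28 lower. The median of -0.79 became 0.23 without scaling between arrays.

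For the pathway around Ret, 8 of 15 genes of the Gdnf and endothelin axis were over 2-fold lower with AOM in Pla2g3+/+ and 2 higher. The ligand gene Nrtn, for neurturin, was 1.30 lower on the log2 scale in Pla2g3+/+ and 1.47 lower in the pools labelled Pla2g3-/-. Its receptor subunit gene Gfra2 was 0.25 higher and 0.63 higher, and Gfra4 was 1.02 and 1.06 lower. Nrg1, the neuregulin gene, had scaled signals of 0.253 and 0.272 with vehicle in Pla2g3+/+ and Pla2g3-/-, 5.14 in Pla2g3+/+ AOM and 0.366 in Pla2g3-/- AOM, so it was high on the Pla2g3+/+ AOM array alone. The median of this list in Pla2g3+/+ was -1.01, and 0.09 without scaling between arrays.

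Among transmitter and peptide genes, 14 of 23 were over 2-fold lower with AOM in Pla2g3+/+ and 0 higher, with a median of -1.41 (-0.66 without scaling between arrays). Tac1, the gene of substance P, the excitatory counterpart of Vip, had scaled signals of 5.67 and 4.92 in the Pla2g3+/+ and Pla2g3-/- vehicle pools, 0.486 in Pla2g3+/+ AOM and 4.02 in Pla2g3-/- AOM. Penk, the gene of the enkephalins, read 2.78, 2.98, 1.05 and 3.59. Gal, the galanin gene, was low in both AOM pools, with 2.39, 2.54, 0.585 and 0.712. Ddc, the decarboxylase of monoamine synthesis, stayed within 2-fold with AOM in both genotypes. Tac1 and Penk therefore resembled Vip in being lowest in Pla2g3+/+ AOM and near the vehicle level in the AOM pool labelled Pla2g3-/-, whereas Gal did not.

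A further list holds genes that receive the Nos1 and Vip signals. Of its 7 genes, 6 were over 2-fold lower with AOM in Pla2g3+/+, 2 were so in the pools labelled Pla2g3-/-, and 0 were over 2-fold higher in either, with medians of -2.30 and -0.31 on the log2 scale (-1.28 and 0.53 without scaling between arrays). Gucy1a1, a subunit of the nitric oxide receptor guanylate cyclase, read 1.06 and 1.29 with vehicle, 0.188 in Pla2g3+/+ AOM and 1.04 in Pla2g3-/- AOM. The other subunit, Gucy1b1, stayed within 2-fold in all comparisons. Pde5a, which breaks down the cyclic GMP that guanylate cyclase makes, was 2.33 lower on the log2 scale in Pla2g3+/+ and 1.12 lower in the pools labelled Pla2g3-/-. Vipr1, a receptor for the Vip peptide, was 1.36 lower and 0.47 higher in the same comparisons.

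Of the genes of enteric glia and Schwann cells, 9 of 17 were over 2-fold lower with AOM in Pla2g3+/+ and 0 higher. Entpd2, an ectonucleotidase of enteric glia, read 2.47 and 3.08 with vehicle, 0.677 in Pla2g3+/+ AOM and 3.04 in Pla2g3-/- AOM. Pmp22, a protein of peripheral myelin that other cells express too, read 25.6, 24.4, 7.99 and 35.5 over the pools in that order. Mbp and Cnp, both of myelin, stayed within 2-fold with AOM in Pla2g3+/+ at log2 ratios of -0.66 and -0.04. The median of this list was -1.68 in Pla2g3+/+, but -0.66 over the genes measured on both arrays, -0.66 without scaling between arrays and -0.54 with normexp and quantile normalization. In the pools labelled Pla2g3-/- it was 0.05, and 0.90 without scaling.

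**Figure D3:**
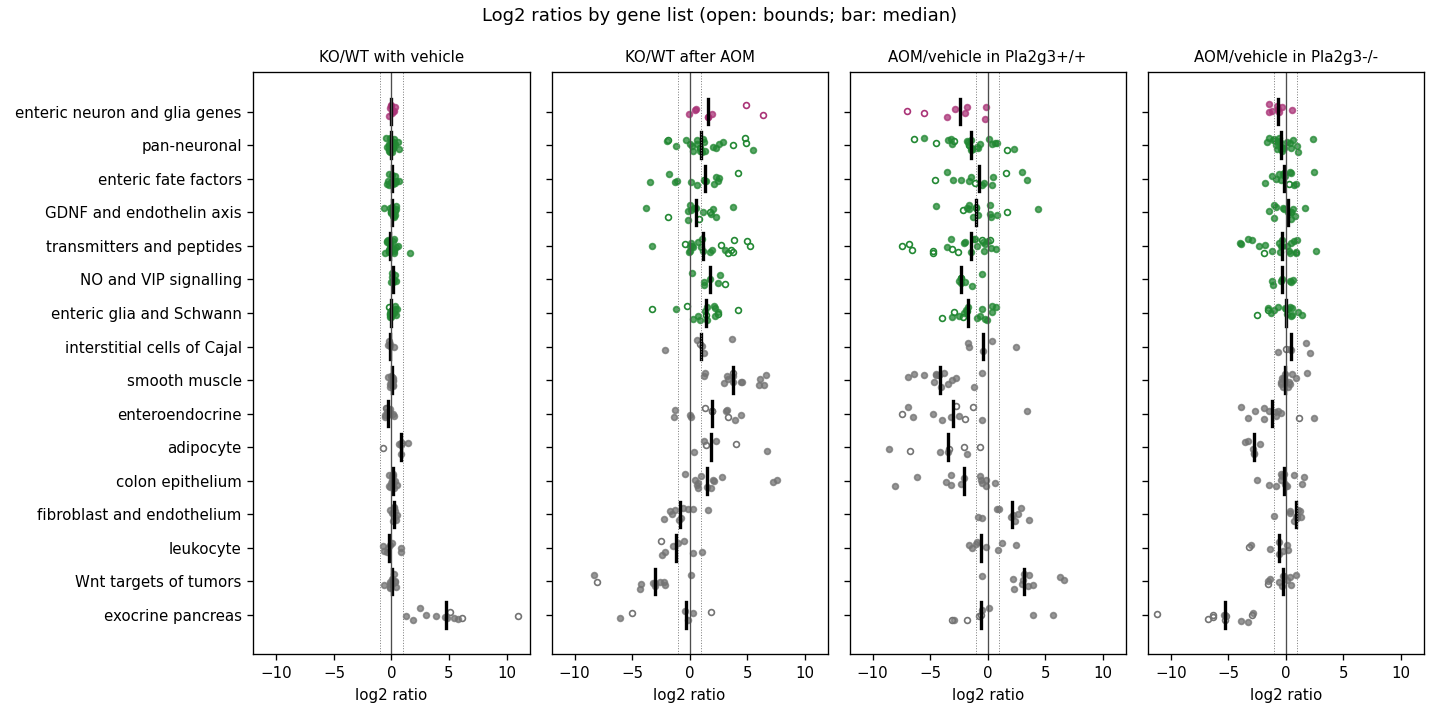
Log2 ratios by gene list in the 4 comparisons, KO standing for the pools labelled Pla2g3-/- and WT for Pla2g3+/+; each point is a gene, open points are bounds and the black bar is the list median. With AOM in Pla2g3+/+, the smooth muscle median lies at -4.13, further from 0 than that of the 8 neuron and glia genes at -2.42.

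Markers of other cell types moved on the same array, and their part in the neural values was not tested. All 14 smooth muscle genes, whose cells house the ganglia, were well above background in the vehicle pools, and 13 of 14 were over 2-fold lower with AOM in Pla2g3+/+, with a median of -4.13, while 0 of 14 were so in the pools labelled Pla2g3-/-. Their summed scaled signal was 721 and 761 in the Pla2g3+/+ and Pla2g3-/- vehicle pools, 46.4 in Pla2g3+/+ AOM and 701 in Pla2g3-/- AOM, and 13 of the 14 were still well above background on the Pla2g3+/+ AOM array. Actg2, the enteric smooth muscle actin gene, read 97.0, 104, 4.31 and 100 over these pools. In the Pla2g3+/+ comparison Vip and Prph were lower than with vehicle by more than the muscle median, whereas the other 6 genes were lower by less. Under normexp and quantile normalization this held for Vip (-3.91 against a muscle median of -3.14) but not for Prph (-2.69). Relative to the muscle genes measured on both arrays (median -4.07 over 13 genes), the bound of Vip lay 2.94 lower and that of Prph 1.44 lower on the log2 scale, and Uchl1 was 0.56, S100b 1.21, Sox10 2.09, Nos1 2.30, Elavl4 3.80 and Ret 3.93 higher. In the pools labelled Pla2g3-/-, where the muscle median was -0.08, Uchl1 was 1.34 lower, S100b 1.33 lower and Nos1 1.11 lower relative to muscle.

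Enteroendocrine cells share peptide and secretory genes with neurons. Of 12 enteroendocrine genes, 10 were over 2-fold lower with AOM in Pla2g3+/+ and 6 in the pools labelled Pla2g3-/-, with summed scaled signals of 64.4, 51.2, 13.3 and 21.0 over Pla2g3+/+ vehicle, Pla2g3-/- vehicle, Pla2g3+/+ AOM and Pla2g3-/- AOM. Cck and Sst are on both the enteroendocrine and the transmitter list, and Isl1 is on both the enteroendocrine list and that of enteric fate factors. Adipocyte genes were lower with AOM in both genotypes, 7 of 8 in Pla2g3+/+ and 6 of 6 with a value in the pools labelled Pla2g3-/-, with summed scaled signals of 18.7, 38.9, 2.29 and 5.60. The Wnt target genes of tumors were over 2-fold higher with AOM in 10 of 11 cases in Pla2g3+/+ and in 0 of 11 in the pools labelled Pla2g3-/-, and their summed scaled signals were 8.69, 8.71, 82.6 and 9.21. Colon epithelium genes summed to 859, 923, 383 and 736. With AOM in Pla2g3+/+, 7 of these 13 genes were over 2-fold lower and 0 higher, with a median of -2.05 on the log2 scale. In the pools labelled Pla2g3-/-, 2 were lower and 2 higher, with a median of -0.11. Between the AOM pools, 7 were over 2-fold higher in the pool labelled Pla2g3-/- and 0 lower, with a median of 1.55. Leukocyte genes summed to 71.3, 68.7, 55.1 and 68.4, and fibroblast and endothelial genes to 42.6, 47.6, 118 and 86.6. Genes of interstitial cells of Cajal, the pacemaker cells beside the enteric neurons, summed to 18.3, 16.3, 16.2 and 57.0, and 2 of 5 with a value were over 2-fold lower and 1 higher with AOM in Pla2g3+/+. Exocrine pancreas genes summed to 0.886, 46.1, 5.04 and 0.331, a pattern that none of the 8 neuron and glia genes showed.

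The genes whose profile over the 4 arrays lay nearest to the mean of the 6 neuron and glia genes well above background throughout were P2rx4, Ankrd24, Mapre3, Nudt19, Mpc1, Smagp, Suclg1, Galnt14, Ffar4 and Zfyve21. Likeness was the Euclidean distance between log2 profiles centred on their own mean, and it ran from 0.049 (P2rx4) to 0.105 (Zfyve21) among 14782 genes. With 4 arrays such neighbours are a description of these pools only. Taken singly, the nearest were Phgr1 and Tmem238l for Uchl1, Kcnk6, Atp5mpl and Ndufb4 for Nos1, Gid4, Clec16a and Cct6b for Ret, and Ggps1, Orai2 and Magea7-ps for the brighter Elavl4 probe. For S100b they were Nr1i2, Mgll and the glial receptor gene Gpr37l1, and for Sox10 Metrnl, Tmem179 and Nans.

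Promoters from RefSeq (build GRCm38.p6, 250 bases before to 50 after the start of transcription) were at hand for 6 of the 8 genes, 9 promoters in all. The letters TATAAA on the strand of the gene were found in those of 2 genes, Vip and Prph. Of all 32851 promoters, 8.32% held them, a share counted per promoter and not per gene. Vip and Prph were also the 2 genes not well above background by their brightest probe on the Pla2g3+/+ AOM array. A link between the letters and these signals was not tested. Both had a TATAAA close to the start, beginning 30 bases before it in Vip and 31 in Prph, and Vip had 3 in all. The 170 bases before the start are shown with TATAAA in capitals, for Vip at chr10:5639048-5639217 (plus strand) and for Prph at chr15:99055004-99055173 (plus strand). The match is a description of the sequence.
Vip: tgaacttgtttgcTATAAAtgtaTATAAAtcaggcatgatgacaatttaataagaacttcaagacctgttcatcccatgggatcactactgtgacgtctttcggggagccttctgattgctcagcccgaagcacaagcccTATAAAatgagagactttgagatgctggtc
Prph: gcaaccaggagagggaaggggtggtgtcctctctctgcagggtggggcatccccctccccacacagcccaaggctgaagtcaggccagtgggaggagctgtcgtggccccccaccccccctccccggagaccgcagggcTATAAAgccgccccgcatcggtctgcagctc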

How the data were processed

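RNA of each pool (27.7 ng) was labelled with Cy3 and hybridised to an Agilent Whole Mouse Genome array, 1 colour and 1 pool per array. The authors read the arrays with Agilent Feature Extraction (11.5.1.1, per the labels) and deposited scanner files with a background-subtracted intensity per spot, raw mean and background intensities, a p-value per spot against background, and flags. A deposited table of ratios held the same signals divided by 1 number per array. No columns of samples from outside the series were found.

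Control spots and outlier spots were left out, spots of 1 probe were averaged on the log2 scale, and each deposited intensity was divided by its array's 75th percentile. Probe names were updated through RefSeq (GRCm38.p6, names only): 31367 of 39423 probes matched 22368 genes. The probe with the highest mean over the 4 arrays stood for its gene, and every probe of the 8 genes was reported. Where 1 side of a ratio was not well above background, the lowest signal well above background on that array, or the probe's own if higher, gave a bound ("at least"). No ratio was given where neither side was above background.

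The 4 comparisons were KO/WT (the pools labelled Pla2g3-/- over Pla2g3+/+) with vehicle and after AOM, and AOM over vehicle in each genotype, with a 2-fold threshold. The additive fit used limma 3.58.1 (lmFit and eBayes, Benjamini-Hochberg over all genes) in R 4.3.3 on signals without bounds. It was checked on simulated data whose changes were alike in both genotypes. The check does not cover changes that differ between the genotypes. The number of arrays limits the precision: there was 1 per group.

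The 8 genes, the gene lists and the tests were chosen with earlier results of these data known. From each list, the 4 genes with the highest mean scaled signal among those well above background on all 4 arrays were named; others are marked as chosen after their values were seen, and some genes that these rules name are not reported here. Also named were the 10 genes nearest to the mean profile and the 3 nearest to each member. Sequences came from the array files and RefSeq. Whether probes lie in coding or untranslated exons was not worked out in full, since no genome of build mm9 was used here. Alternatives to the scaling, background correction, probe choice, dim signals and fold threshold were computed.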

Additional observations from a re-analysis of the deposited data

How the results depend on the processing

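With vehicle, none of the 8 genes passed 2-fold in either direction under any alternative tried (other scalings, normexp background, other treatment of dim signals or probes, the deposited table, 1.5-fold and 4-fold thresholds). After AOM, the 5 genes higher in the pool labelled Pla2g3-/- became 3 with normexp and quantile normalization, where Uchl1 was at 0.84 and Sox10 at 0.75 on the log2 scale, 3 where both arrays had to be well above background, which leaves out the bounds of Vip and Prph, and 2 at 4-fold. The count was 7 with the mean over all probes and with the dimmest probe, and 6 at 1.5-fold. With AOM in Pla2g3+/+ the count of 6 lower genes ran from 4 to 7 over the alternatives. In the pools labelled Pla2g3-/-, the 3 lower genes became 0 without scaling, 1 with normexp and quantile normalization, 5 at 1.5-fold and 0 at 4-fold, and the count of higher genes went from 0 to 1 without scaling (Ret, 1.42). Nos1 with AOM in that genotype went from -1.19 to 0.25, a bound, by its dimmest probe, whose values in these pools overlap within their errors. Leaving the arrays unscaled moved the median of all genes by 1.02 with AOM in Pla2g3+/+ and by 0.85 in the pools labelled Pla2g3-/-, and quantile normalization by 0.16 and 0.11. The limma fit called 0 genes for either factor under every alternative, with 2093 to 3166 treatment genes and 56 to 348 genotype genes at an unadjusted p of 0.05. No paired analysis was possible because the 4 arrays share a single replicate number, beyond the additive fit itself, in which genotype stands as a block for treatment. No array could be left out, since each group has 1. Dim probes (Nos1, and Elavl4 by its dimmer probe) lie near the lowest signal well above background, so their ratios are limited by it.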
